A study of Homo sapiens with 4 samples.

Results

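MicroRNA host transcripts and the genes that make and use microRNAs were followed in HK-2 cells given transforming growth factor β1 (TGF-β1) or left without it. HK-2 is an established line of human kidney proximal tubule cells that was immortalised with viral oncogenes. The members were every gene in the table whose symbol begins with MIR and ends with HG, the naming of transcripts that carry microRNA hairpins, plus 17 named processing genes. They numbered 65 of 25609 genes, of which 48 were host transcripts. The 4 libraries of total RNA were 2 controls and 2 samples labelled TGFbeta1, all of wild-type genotype. The protocol lists 24 h without serum, TGF-β1 at 20 ng/mL for 24 h, and 100 μM 4-thiouridine, an analogue that marks new RNA, over the last 20 h. This protocol text is attached to all 4 samples, and controls were taken to have had each step except TGF-β1. The labels do not say whether the libraries of a group came from separate cultures, so p values measure the spread between libraries, which may be technical.

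Most microRNAs begin as a hairpin inside a longer RNA, either in an intron or in an exon of a host transcript. The nuclear microprocessor, made of the nuclease DROSHA and its partner DGCR8, cuts the hairpin out, exportin 5 carries it to the cytoplasm, and DICER1 trims it to a short duplex. An Argonaute protein keeps a single strand, pairs its seed with target messages, and recruits TNRC6 proteins that silence them. A library of long RNA measures the host transcript and not the mature microRNA.

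Of the 48 host transcripts, 40 held at least 1 RefSeq hairpin on their own strand in GENCODE 29 on hg38, for 71 hairpins in all. Of these, 40 lay in introns, 27 in exons, 3 partly in exons and 1 across an end of the host. The RefSeq set used here had no entry for miR-22, miR-155 or miR-181b-2. Hosts of these, MIR22HG and MIR155HG among them, were therefore counted without those hairpins. The mature sequences below are those of hosts that the results turn on. They come from RefSeq (GRCh38.p14), are written 5′ to 3′, and have the seed, bases 2 to 8, in capitals. Each line names only hosts of hairpins with an entry, so the missing miR-181b-2 may add a host of miR-181b-5p. The first 9 lines come from hosts that rose with TGF-β1 or from their seed relatives, and the tenth from a host that had less RNA in both TGF-β1 libraries.
miR-181a-5p, in introns of MIR181A2HG and MIR181A1HG: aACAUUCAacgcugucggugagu
miR-181b-5p, of MIR181A1HG: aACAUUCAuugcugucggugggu
miR-193b-3p, in an intron of MIR193BHG: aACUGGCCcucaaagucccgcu
miR-365a-3p, in an intron of MIR193BHG: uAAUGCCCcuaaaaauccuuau
miR-365b-3p, of MIR365BHG: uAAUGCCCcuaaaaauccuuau
miR-23a-3p, of MIR23AHG: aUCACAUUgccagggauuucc
miR-27a-3p, of MIR23AHG: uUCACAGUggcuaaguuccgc
miR-24-3p, of MIR23AHG: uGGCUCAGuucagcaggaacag
miR-31-5p, in an intron of MIR31HG: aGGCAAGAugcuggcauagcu
miR-34a-5p, in an exon of MIR34AHG: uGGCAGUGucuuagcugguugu
The next lines give let-7 and miR-17 relatives, whose tested hosts did not pass the test, while MIR100HG was not tested.
let-7a-5p, of MIRLET7BHG and MIR100HG: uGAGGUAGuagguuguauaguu
let-7b-5p, of MIRLET7BHG: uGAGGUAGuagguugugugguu
let-7i-5p, of MIRLET7IHG: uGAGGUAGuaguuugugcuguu
miR-17-5p, of MIR17HG: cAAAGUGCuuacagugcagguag
miR-20a-5p, of MIR17HG: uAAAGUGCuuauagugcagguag
Members of the let-7 lines share the seed GAGGUAG, miR-17 and miR-20a share AAAGUGC, and the 2 miR-181 forms share ACAUUCA. The miR-365a-3p and miR-365b-3p forms of the 2 hosts are the same molecule over their whole length.

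The libraries were shallow. Whole reads could be recovered from the deposited values for 99.6% of genes, and they summed to 3293475 and 4738533 in the controls and 4570774 and 5369563 in the TGF-β1 libraries. Values are RPKM, that is, read numbers divided by exon kilobases and by a library size. A test was made for 43 members whose mean over the 4 libraries reached 0.5 RPKM, 27 hosts and 16 processing genes. The other 22 were 21 hosts and LIN28B. Known TGF-β target genes rose in the libraries labelled TGFbeta1: SMAD7 went from 8.65 ± 0.43 to 37.6 ± 3.4 RPKM (SD, n = 2), and PMEPA1, COL1A1 and SKIL were also called higher, while CCN2 was not (adjusted p = 0.125, limma). Among epithelial and tubule markers, KRT8 and KRT18 were called higher and EPCAM, PAX8 and DPP4 lower, GGT1 was expressed, and SLC34A1, AQP1, CUBN and ANPEP had at most 5 reads in any library. Of 13 markers of other cell types, 8 had rows, and these summed to 14.2 and 15.6 RPKM in controls and 10.5 and 7.93 RPKM with TGF-β1, mostly LUM, with VWF, CDH5 and NPHS1 at 0 reads. Their part in the results was not tested.

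Among host transcripts, MIR181A2HG, MIR23AHG, MIR31HG, MIR22HG and MIR193BHG rose with TGF-β1. Mean RPKM rose 1.97-fold to 3.83-fold for 4 of them, while MIR31HG had too few control reads for a firm ratio. No host was called lower (limma, with 1 lower at an unadjusted p below 0.05, and MIR34AHG lower with voom on recovered reads). That is 5 of 27 tested hosts (18.5%), beside 6.12% of all 16590 tested genes called higher, 3% called lower and 9.12% called in either direction. The summed level of all 48 hosts was 75.0 and 73.0 RPKM in the controls and 127 and 122 RPKM with TGF-β1. The median log2 fold change of tested hosts was 0.17, against 0.03 for all tested genes. With each library scaled by its total of recovered reads the median over all genes moved by -0.15, and 42.9% of all calls were higher in place of 67.1%, but the same 5 hosts were called higher. Calls used limma on log2(RPKM + 0.5) with Benjamini-Hochberg adjustment over all tested genes, at an adjusted p below 0.05; log2 values understate the change of genes near or below 1 RPKM, and folds are ratios of mean RPKM. In bulk RNA fewer cells of a type and less RNA per cell cannot be told apart.

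MIR181A2HG, on the plus strand of chromosome 9 from 124658467 to 124698631 in hg38, is a noncoding transcript with the MIR181A2 hairpin in an intron. Its level was 18.5 and 18.5 RPKM in the controls and 54.0 and 51.8 RPKM with TGF-β1. Both TGF-β1 libraries stood far above both controls, with almost no spread within either group. The rise was 2.86-fold (log2 fold change 1.49, SE 0.07, 95% confidence interval 1.32 to 1.66, adjusted p = 0.00143, limma), from 41 and 57 reads to 148 and 161. Taken as reads over library size, the ratio was 2.88 with a 95% counting interval of 2.29 to 3.65. With voom on recovered reads the SE was 0.19, so the limma interval may be too narrow. MIR181A2HG was called under all 13 alternatives of the processing that were tried, and it was the only host of which that held. No annotated exon of another gene overlaps its exons, with microRNA genes left out of that check. At 52.9 RPKM it supplied more than any other host to the summed host level with TGF-β1.

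MIR23AHG, on the minus strand of chromosome 19 from 13823880 to 13842928, is the host of the miR-23a, miR-27a and miR-24-2 cluster, with all 3 hairpins in an exon of the GENCODE 29 model. It had 1.08 and 1.02 RPKM in the controls and 4.27 and 3.77 RPKM with TGF-β1. The groups did not overlap, and even the lower TGF-β1 library stood well clear of the controls. The rise was 3.83-fold (log2 fold change 1.54, 95% confidence interval 1.07 to 2.02, adjusted p = 0.0129, limma), on 6 and 8 reads against 31 and 31. ZSWIM4, on the opposite strand, overlaps 12.0% of the exon bases of that model and also rose, from 6.06 to 9.48 RPKM (adjusted p = 0.0365, limma). No source used here gives the strand setting of the counting, and the share of MIR23AHG reads that came from ZSWIM4 was not tested. The deposited values imply a shorter model of 1774 exon bases, fewer than the 2286 that ZSWIM4 overlaps in the GENCODE 29 model. For the shorter model, neither the overlap with ZSWIM4 nor the place of the hairpins is known.

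MIR31HG, on the minus strand of chromosome 9 from 21455642 to 21559669, is a long noncoding RNA with the MIR31 hairpin in an intron. It had 0.594 and 0.428 RPKM in the controls and 3.07 and 2.71 RPKM with TGF-β1. Those levels rest on 1 read in each control and 9 reads in each TGF-β1 library. The log2 fold change was 1.75 (95% confidence interval 1.16 to 2.33, adjusted p = 0.016, limma). Taken as reads over library size, the ratio was 8.21 with a 95% counting interval of 1.97 to 73.0, so the direction is better fixed than the size. The pseudogene IFNWP19 covers 40.7% of its exon bases on the opposite strand.

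MIR22HG, on the minus strand of chromosome 17 from 1711493 to 1717174, is the host of miR-22. It had 4.89 and 6.23 RPKM in the controls and 12.2 and 11.1 RPKM with TGF-β1. Every TGF-β1 value lay above every control value by a wide margin. The rise was 2.09-fold (log2 fold change 1.01, 95% confidence interval 0.63 to 1.38, adjusted p = 0.0206, limma), on 49 and 87 reads against 151 and 155.

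MIR193BHG, on the plus strand of chromosome 16 from 14301389 to 14331067, holds the miR-193b and miR-365a hairpins in introns. It had 3.83 and 4.52 RPKM in the controls and 8.85 and 7.57 RPKM with TGF-β1. The groups were again apart, with somewhat more spread between the TGF-β1 libraries. The rise was 1.97-fold (log2 fold change 0.90, 95% confidence interval 0.52 to 1.28, adjusted p = 0.0277, limma), on 78 and 128 reads against 222 and 215. With microRNA genes left out of the check, neither MIR22HG nor MIR193BHG shares exon bases with another annotated gene.

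The calls other than MIR181A2HG were lost when either TGF-β1 library was left out. Fewer genes of the whole table were also called in those fits. Without TGF-β1 replicate 1 the adjusted p was 0.0706 for MIR23AHG, 0.0793 for MIR31HG, 0.0751 for MIR22HG and 0.118 for MIR193BHG, and without TGF-β1 replicate 2 it was 0.0576, 0.0694, 0.0574 and 0.0731 in that order (limma). MIR193BHG also lost its call without control replicate 1 (adjusted p = 0.0634, limma). With all libraries kept but no variance trend, the adjusted p was 0.0736 for MIR22HG and 0.0773 for MIR193BHG (limma).

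**Figure D1:**
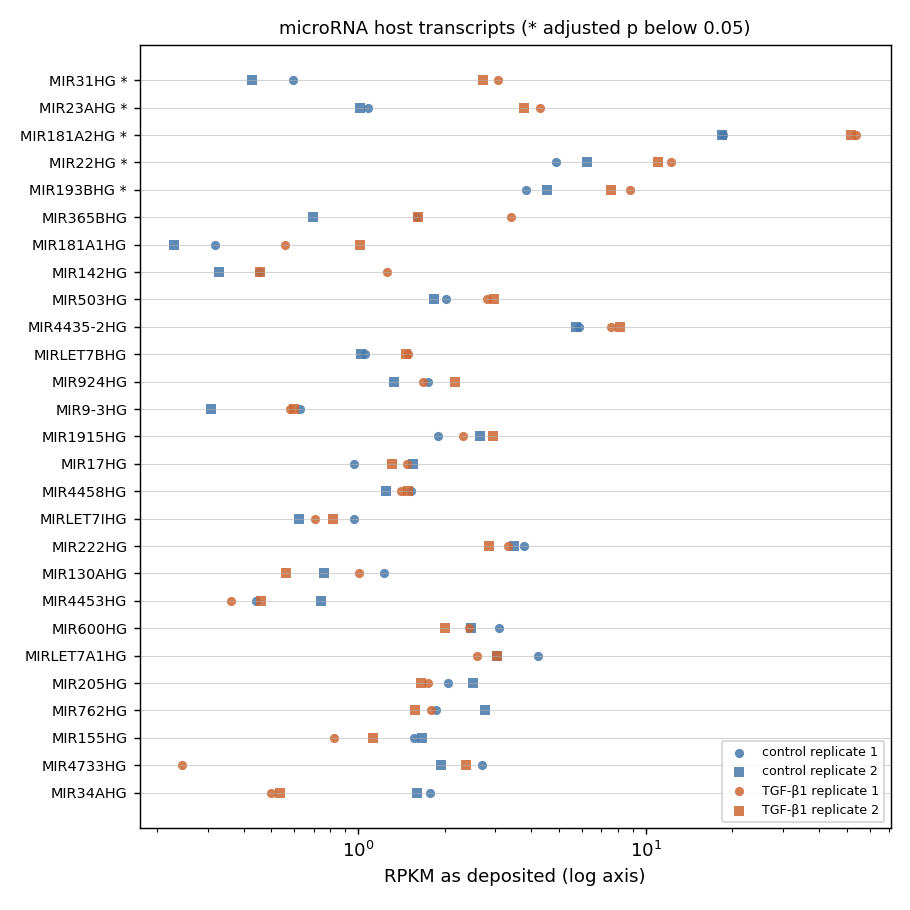
RPKM of each tested host transcript in the 4 libraries, on a log axis, with controls and TGF-β1 libraries in separate colours, replicates as separate symbols, and an asterisk at hosts with an adjusted p below 0.05. MIR181A2HG sits furthest right, at 18.5 RPKM in both controls and above 50 RPKM in both TGF-β1 libraries.

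MIR34AHG ran the other way and just missed the threshold. It is the host of miR-34a, a microRNA induced by p53, lies on the minus strand of chromosome 1 from 9148011 to 9198906, and has the hairpin in an exon. It had 1.77 and 1.61 RPKM in the controls and 0.50 and 0.534 RPKM with TGF-β1. Both TGF-β1 libraries were below both controls. The level was 3.27-fold lower (log2 fold change -1.11, 95% confidence interval -1.70 to -0.51, adjusted p = 0.0522, limma), on 27 and 34 reads against 9 and 11. The ratio of reads over library size was 3.34-fold lower with a counting interval of 1.99 to 5.85. It passed with each library scaled by its total reads (adjusted p = 0.0411), without a variance trend (adjusted p = 0.0442) and on recovered reads with voom (adjusted p = 0.000889, limma in each case).

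Several further hosts had separated groups without a call. Over all 27, the groups did not overlap for 18, with 11 higher and 7 lower with TGF-β1, beside 29.5% of all tested genes higher and 24.6% lower, 54.1% in either direction. MIR181A1HG and MIR142HG, both among the higher hosts, passed the expression filter only through their TGF-β1 libraries. MIR4435-2HG had 5.88 and 5.74 RPKM in the controls and 7.54 and 8.13 RPKM with TGF-β1 (log2 fold change 0.40, 95% confidence interval 0.11 to 0.69, adjusted p = 0.0996, limma; 0.00639 with voom on recovered reads). MIR503HG, with the miR-503 hairpin in an intron and the miR-424 hairpin across its end, had 2.02 and 1.84 RPKM against 2.80 and 2.97 RPKM (0.48, interval 0.03 to 0.93, adjusted p = 0.177, limma). MIR155HG, the host of the immune microRNA miR-155, had 1.57 and 1.66 RPKM in the controls and 0.827 and 1.13 RPKM with TGF-β1 (log2 fold change -0.52, adjusted p = 0.255, limma), on 5 to 12 reads a library.

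Hosts that share a seed were set side by side. For ACAUUCA, the called MIR181A2HG has a relative in MIR181A1HG, which had 0.318 and 0.229 RPKM in the controls and 0.555 and 1.01 RPKM with TGF-β1. The control mean of 0.273 RPKM was under the filter of 0.5 RPKM, which MIR181A1HG passed only through its TGF-β1 mean of 0.784 RPKM. Its 3 and 3 reads against 7 and 15 reads gave a log2 fold change of 0.71 with an interval of -0.10 to 1.53 (adjusted p = 0.256, limma). So the miR-181a-5p sequence has 2 hosts here, of which MIR181A2HG was by far the more abundant in every library. For AAUGCCC, the called MIR193BHG has a relative in MIR365BHG, with 1.61 and 0.695 RPKM against 3.41 and 1.62 RPKM. There the lower TGF-β1 value was only just above the higher control value (log2 fold change 0.86, adjusted p = 0.297, limma, on 1 to 6 reads). Whether the members of either pair differed in their response was not tested.

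The seed GAGGUAG of the let-7 family was held by MIRLET7BHG, MIRLET7IHG, MIR100HG and MIR99AHG. MIRLET7BHG had 1.06 and 1.02 RPKM in the controls and 1.49 and 1.46 RPKM with TGF-β1, with groups apart (log2 fold change 0.36, adjusted p = 0.386, limma). MIRLET7IHG had 0.967 and 0.624 RPKM against 0.706 and 0.818 RPKM, with the TGF-β1 values between the control values. MIR99AHG had 0 reads in all 4 libraries. The annotated start of MIRLET7A1HG lies 25 bases downstream of the let-7f-1 hairpin, so in this model the transcript does not contain that hairpin. MIRLET7A1HG had 4.21 and 3.04 RPKM against 2.60 and 3.03 RPKM (log2 fold change -0.30, adjusted p = 0.443, limma). LINC02603 covers 78.7% of its exon bases on the opposite strand. MIR100HG, with 1 and 1 reads against 10 and 3, and MIR99AHG were under the expression filter and were not tested. Values of the tested let-7 hosts lay on both sides of their controls, and none passed the test.

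Hosts of clusters with a known role in growth did not pass the test, and their intervals were wide. MIR17HG, host of the miR-17 to miR-92a cluster with 6 hairpins in exons, had 0.971 and 1.55 RPKM in the controls and 1.48 and 1.31 RPKM with TGF-β1. Its TGF-β1 values lay inside the range of the controls, and the interval of its log2 fold change, -0.55 to 0.80, leaves room for moderate changes either way. MIR222HG, with the miR-221 and miR-222 hairpins in introns, had 3.76 and 3.48 RPKM against 3.33 and 2.86 RPKM (log2 fold change -0.20, interval -0.61 to 0.21, adjusted p = 0.513, limma). MIR130AHG had 1.24 and 0.759 RPKM against 1.01 and 0.560 RPKM, with overlapping groups.

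The remaining tested hosts had small or uncertain differences. MIR205HG had 2.05 and 2.51 RPKM in the controls and 1.74 and 1.66 RPKM with TGF-β1 (log2 fold change -0.33, adjusted p = 0.388, limma). MIR600HG had 3.08 and 2.47 RPKM against 2.43 and 2.01 RPKM, and MIR762HG 1.87 and 2.75 RPKM against 1.79 and 1.58 RPKM, both with TGF-β1 below the controls and adjusted p of 0.485 and 0.445 (limma). BCL7C covers 27.5% of the exon bases of MIR762HG on the other strand. MIR142HG, whose microRNA is typical of blood cells, had 0.454 and 0.327 RPKM against 1.26 and 0.457 RPKM, on 2 to 8 reads. With a control mean of 0.391 RPKM, it passed the expression filter only through its TGF-β1 mean of 0.858 RPKM. MIR924HG had 1.75 and 1.34 RPKM against 1.69 and 2.18 RPKM, MIR1915HG 1.90 and 2.66 RPKM against 2.31 and 2.93 RPKM, and MIR4458HG 1.53 and 1.25 RPKM against 1.41 and 1.49 RPKM. In all 3 the groups overlapped. MIR9-3HG had 0.629 and 0.307 RPKM against 0.580 and 0.599 RPKM, and MIR4453HG 0.442 and 0.745 RPKM against 0.361 and 0.460 RPKM. MIR4733HG had 2.7, 1.95, 0.245 and 2.37 RPKM, of which the third value stands for 0 reads and the others for 4 or 5, and NF1 covers 29.1% of its exon bases on the opposite strand.

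**Figure D2:**
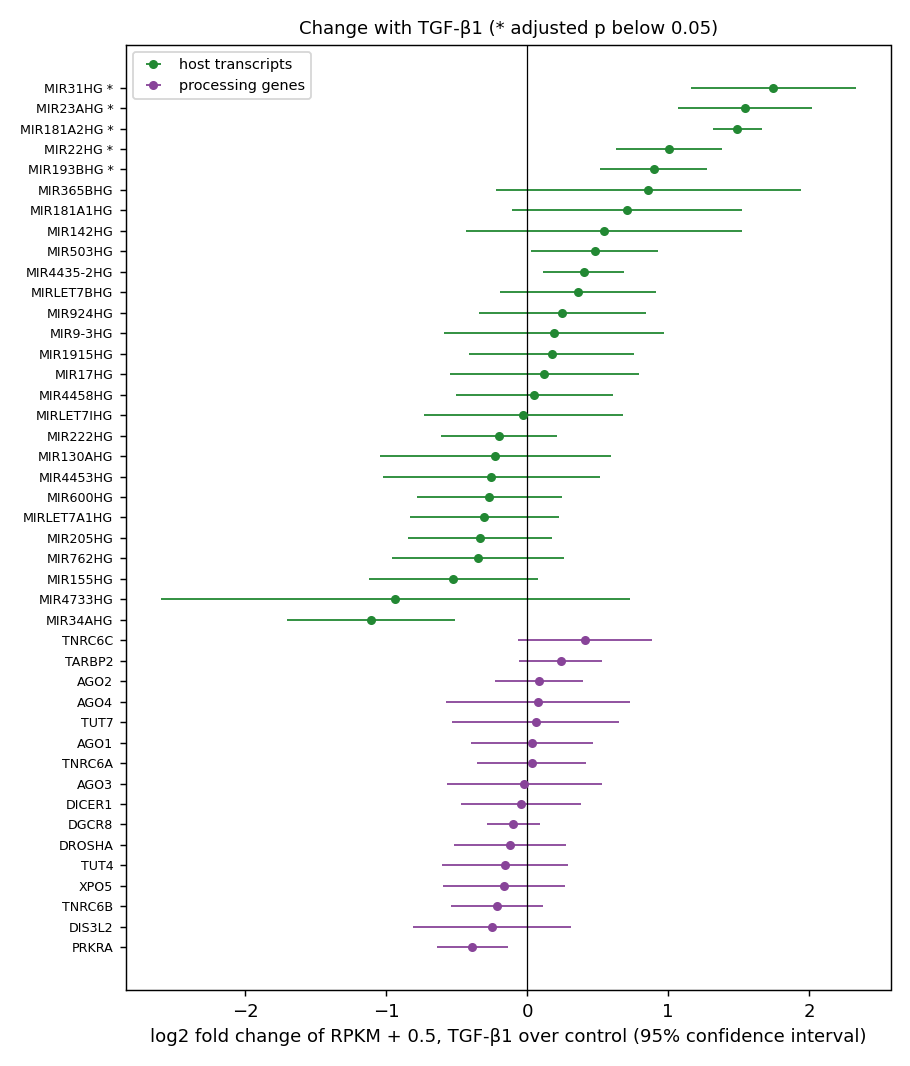
Log2 fold change of RPKM + 0.5, TGF-β1 over control, with its 95% confidence interval, for the 43 tested members, hosts and processing genes in separate colours. Hosts span -1.11 to 1.75, whereas processing genes span -0.39 to 0.41.

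Hosts under the expression filter had low RPKM, and 6 of them had at least 5 reads in some library. RPKM divides by exon length, so MIR29B2CHG, with 16425 exon bases, fell under the filter with more reads than the called MIR31HG. MIR29B2CHG, host of miR-29b-2 and miR-29c, microRNAs known to target collagen messages, had 27 and 26 reads in the controls, against 14 and 14 with TGF-β1. Over library size this is 2.07-fold lower, with a 95% counting interval of 1.29 to 3.41 that holds no variation between cultures. MIR3681HG had 6 and 8 reads against 1 and 1, 7.67-fold lower (1.76 to 69.5), and MIR210HG, host of the hypoxia microRNA miR-210, had 3 and 7 reads against 0 and 1, 11.0-fold lower (1.56 to 476). MIR100HG, host of miR-100, let-7a-2 and miR-125b-1, ran upward with 1 and 1 reads against 10 and 3 (5.93-fold, 1.34 to 54.1). MIR3142HG, which also carries miR-146a, had 3 and 3 reads against 4 and 6, and MIR3936HG 2 and 2 against 1 and 6. These ratios cover counting error only, and these hosts were left out of the main test. With no filter on low values, MIR3681HG was called lower and none of the other 5 was called (limma). The other 15 untested hosts had at most 4 reads in any library, and 5 of them, MIR2117HG, MIR583HG, MIR646HG, MIR7-3HG and MIR99AHG, had none.

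**Figure D3:**
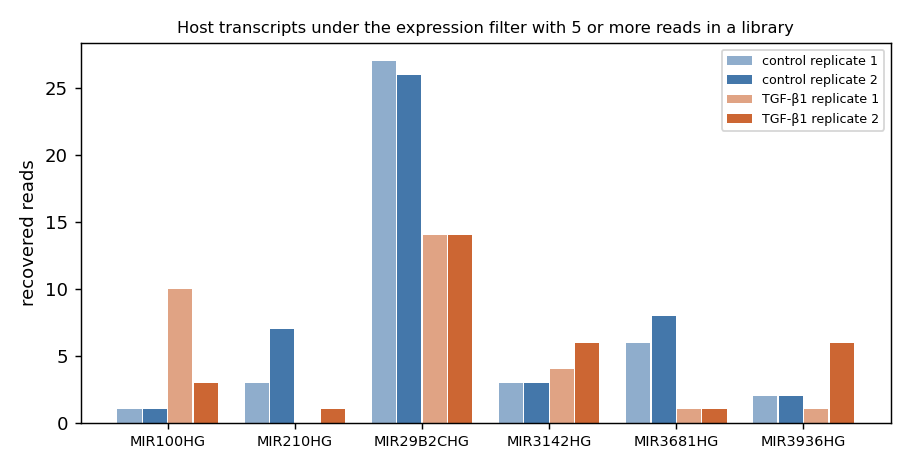
Recovered reads in each of the 4 libraries for the 6 host transcripts under the expression filter that had 5 or more reads in some library. MIR29B2CHG has 27 and 26 reads in the controls and 14 in each TGF-β1 library, and the other 5 have 10 or fewer.

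Reads that the table assigns to hairpins themselves were too few to follow. MIR365A had 1, 0, 3 and 2 reads in the order control 1, control 2, TGF-β1 1 and TGF-β1 2, MIR23A had 0, 0, 0 and 2, and MIR31 had 0, 0, 0 and 1. Other rows did not lean this way. MIR193B, in the same host as MIR365A, had 0, 1, 0 and 0, and so did MIR222. Near MIRLET7A1HG, MIRLET7D had 2, 5, 4 and 3 and MIRLET7A1 had 0, 1, 2 and 5. The hairpins named are examples. These rows do not measure the mature microRNAs.

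None of the 16 processing genes that were tested was called (limma), beside 9.12% of all tested genes, and at an unadjusted p below 0.05 there was 1, PRKRA, while voom on recovered reads called PRKRA and TNRC6C. Their median log2 fold change was -0.03 and their summed level was 92.1 and 87.5 RPKM in the controls and 85.9 and 89.7 RPKM with TGF-β1. The groups did not overlap for 9, with 2 higher and 7 lower, beside 29.5% and 24.6% of all tested genes. The median distance from estimate to either end of the 95% confidence interval was 0.43 on the log2 scale before any adjustment for the number of genes. At this depth and with 2 libraries a group, the lack of a call does not show that a gene did not change.

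In the nucleus, DROSHA had 3.09 and 3.21 RPKM in the controls and 2.83 and 2.88 RPKM with TGF-β1 (log2 fold change -0.12, interval -0.52 to 0.28, adjusted p = 0.692, limma). DGCR8, which binds the hairpin for DROSHA, was the most abundant processing gene at 20.0 and 20.2 RPKM against 18.7 and 18.9 RPKM (-0.10, interval -0.28 to 0.09, adjusted p = 0.483, limma). Both were slightly lower in both TGF-β1 libraries, by amounts that the test did not separate from 0. The ratio of DGCR8 to DROSHA level, per length, was 6.48 and 6.29 in the controls, against 6.60 and 6.55 with TGF-β1. XPO5, the export receptor, had 6.21 and 6.60 RPKM against 4.87 and 6.59 RPKM, with 1 of the TGF-β1 libraries lower than the rest (log2 fold change -0.16, adjusted p = 0.617, limma). POLR1C, called higher (adjusted p = 0.0316, limma), covers 4.08% of its exon bases on the opposite strand.

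In the cytoplasm, DICER1 had 2.60 and 2.60 RPKM in the controls and 2.50 and 2.53 RPKM with TGF-β1 (log2 fold change -0.04, interval -0.47 to 0.38, adjusted p = 0.91, limma). Its 2 double-stranded RNA-binding partners had log2 fold changes of opposite sign, neither called. TARBP2 had 16.5 and 13.7 RPKM against 17.1 and 18.5 RPKM (log2 fold change 0.24, interval -0.06 to 0.53, adjusted p = 0.29, limma). PRKRA, also known as PACT, had 9.62 and 9.74 RPKM against 7.42 and 7.14 RPKM, 1.33-fold lower (log2 fold change -0.39, interval -0.64 to -0.14, adjusted p = 0.0812, limma). PRKRA passed with each library scaled by its total reads (adjusted p = 0.0379, limma) and on recovered reads with voom (adjusted p = 0.0359). The TARBP2 to PRKRA ratio was 1.71 and 1.41 in the controls, against 2.31 and 2.59 with TGF-β1, 1.56 ± 0.22 against 2.45 ± 0.20 (SD, n = 2, exact permutation test, two-sided p = 0.333). That p is the smallest that 2 libraries against 2 allow, and the ratio was chosen after the values were seen.

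The Argonautes, which hold the mature strand, did not separate by group. AGO2, the member that can cut its target, had 7.91 and 7.26 RPKM in the controls and 7.53 and 8.63 RPKM with TGF-β1 (log2 fold change 0.08, interval -0.23 to 0.39, adjusted p = 0.732, limma; -0.08 with libraries scaled by total reads). AGO1 had 2.54 and 2.90 RPKM against 2.71 and 2.88 RPKM, AGO3 1.43 and 1.56 RPKM against 1.61 and 1.34 RPKM, and AGO4 1.12 and 0.805 RPKM against 0.944 and 1.13 RPKM. All 4 had overlapping groups. AGO2 made up 57.9% to 61.7% of the summed Argonaute RPKM, AGO1 19.5% to 23.2%, AGO3 9.59% to 12.6%, and AGO4 6.42% to 8.59%. The order of the family was the same in every library.

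The TNRC6 proteins are the Argonaute partners that bring in deadenylases. TNRC6A had 7.72 and 5.98 RPKM in the controls and 7.16 and 6.78 RPKM with TGF-β1, with overlap. TNRC6B had 5.15 and 5.39 RPKM against 4.60 and 4.36 RPKM (log2 fold change -0.21, interval -0.54 to 0.11, adjusted p = 0.387, limma). TNRC6C had 1.63 and 1.71 RPKM against 2.28 and 2.49 RPKM, 1.43-fold higher (log2 fold change 0.41, interval -0.07 to 0.89, adjusted p = 0.262, limma), and passed on recovered reads with voom (adjusted p = 0.0295). As shares of the family's summed RPKM, TNRC6C took 11.2% and 13.1% in the controls, against 16.3% and 18.3% with TGF-β1, and TNRC6B 35.5% and 41.2% against 32.8% and 32.0%. No test was made of these shares.

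Among enzymes that tail or degrade precursors, TUT4 had 2.38 and 2.46 RPKM in the controls and 2.07 and 2.17 RPKM with TGF-β1 (log2 fold change -0.16, adjusted p = 0.646, limma). TUT7, its uridylating paralog, had 2.13 and 1.57 RPKM against 2.17 and 1.73 RPKM, with overlap. DIS3L2, the nuclease that degrades uridylated RNA, had 2.09 and 1.72 RPKM against 1.37 and 1.68 RPKM (log2 fold change -0.25, adjusted p = 0.543, limma). LIN28B, which blocks let-7 maturation in embryonic and tumour cells, had 0 reads in all 4 libraries, which allows up to 3 reads in each.

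**Figure D4:**
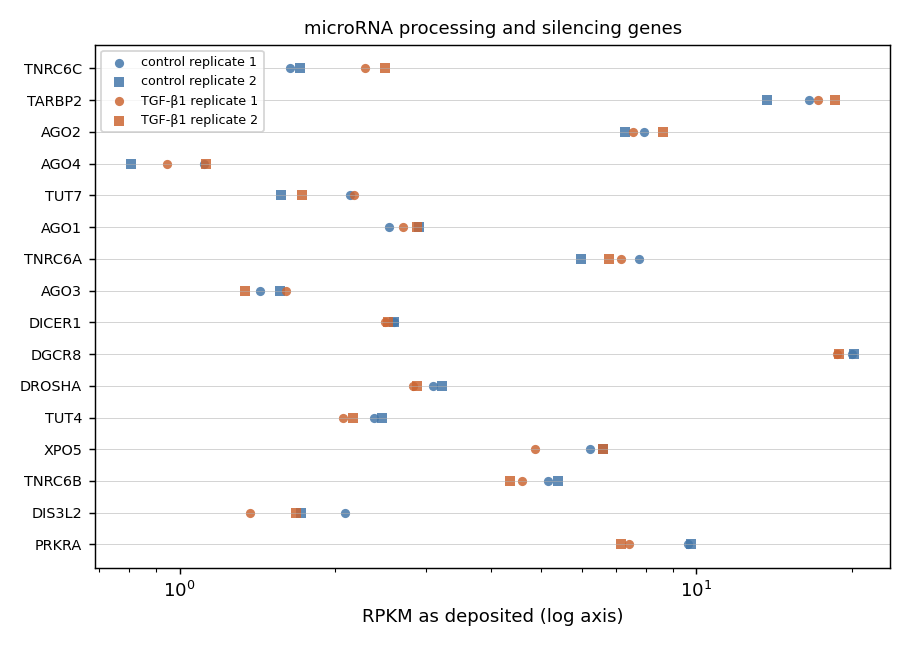
RPKM of the 16 tested processing genes in the 4 libraries, on a log axis, with controls and TGF-β1 libraries in separate colours. PRKRA has a gap between controls at 9.62 and 9.74 RPKM and TGF-β1 libraries at 7.42 and 7.14 RPKM, and DGCR8 lies furthest right.

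**Figure D5:**
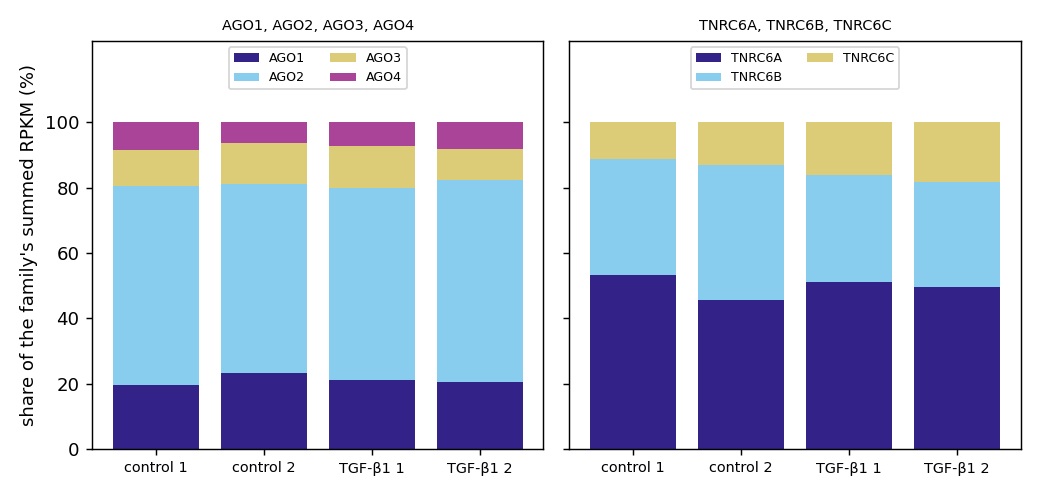
Share of the summed RPKM of each family held by each paralog, in percent, for the Argonautes and the TNRC6 proteins, 1 bar per library. AGO2 holds 57.9% to 61.7% in every library, and TNRC6C is at 11.2% and 13.1% in the controls, against 16.3% and 18.3% with TGF-β1.

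The wider pathway was read from lists chosen by role. Of 114 tested list genes, 6 were called, 5 higher and 1 lower, beside 6.12% of all tested genes called higher and 3% called lower. Among 18 partners of the microprocessor, SRRT, which links capped primary transcripts to DROSHA, was called, at 110 and 107 RPKM in the controls and 134 and 132 RPKM with TGF-β1 (log2 fold change 0.29, adjusted p = 0.0413, limma). Among 18 genes of export and loading, CDC37, an HSP90 co-chaperone, was called, at 86.8 and 89.8 RPKM against 118 and 126 RPKM (0.47, adjusted p = 0.0177, limma). None of 14 tailing and turnover genes was called, the smallest p being that of DIS3L, at 1.33 and 1.82 RPKM against 0.509 and 0.684 RPKM (-0.91, adjusted p = 0.107, limma). In that list 2 genes had an unadjusted p below 0.05, and voom on recovered reads called DIS3L, PARN and TUT1.

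Of 32 genes of deadenylation, decapping and translational repression, 1 was called in each direction. AJUBA, a LIM-domain protein that joins Argonaute complexes to decapping and also sits at cell junctions, had 40.1 and 40.3 RPKM in the controls and 16.7 and 16.5 RPKM with TGF-β1 (log2 fold change -1.25, adjusted p = 0.00219, limma), and it was called under all 13 alternatives. EDC3, a decapping enhancer, had 8.41 and 8.94 RPKM against 12.4 and 12.5 RPKM (0.50, adjusted p = 0.0386, limma). The list's median log2 fold change was -0.11, with 17 genes lower and 7 higher without overlap, beside 24.6% and 29.5% of all tested genes.

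Protein-coding and other genes that carry microRNAs under their own names gave 2 calls among 32 tested. DNM2, a dynamin of membrane fission, had 18.8 and 18.6 RPKM in the controls and 25.0 and 27.2 RPKM with TGF-β1 (log2 fold change 0.47, adjusted p = 0.0297, limma). RCL1, a factor of ribosomal RNA processing, had 3.81 and 4.72 RPKM against 7.11 and 7.58 RPKM (0.72, adjusted p = 0.047, limma). The list's median log2 fold change was 0.16, with 20 genes higher and 3 lower without overlap, beside 29.5% and 24.6% of all tested genes. Scaling by total reads moved the median of all genes by -0.15, a shift of about the same size. None of the 5 higher list calls passed after quantile normalisation of the libraries, and under scaling by total reads CDC37 alone of them did. Quantile normalisation gave 6 list calls, all lower, and scaling by total reads gave 1 higher and 4 lower, so their direction depended on the scaling.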

How the data were processed

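Total RNA of 2 control and 2 TGF-β1 HK-2 samples, grouped by their titles, was extracted with TRIzol and made into libraries with a directional NEBNext kit, per the labels' protocols. The authors deposited 1 table of RPKM values for 25609 genes. Tools listed in the submitters' processing notes are STAR 2.7.1a, bcl2fastq 2.20.0.422 and DESeq2, with hg38 as build and no roles stated. Not given in the sources used here are the annotation release, the counting tool and its strand setting. No value is 0. RPKM times exon length gave whole reads plus 0.5, times a constant of the library, for 100% of the 23853 genes with the same identifier version in GENCODE 29 (tolerance 0.01 read). For 1650 genes the length was inferred from the values, and 106 were not recovered. The constants imply library sizes of 3390863, 4700111, 4156179 and 4708954 reads (controls, then TGF-β1), which are 1.03, 0.992, 0.909 and 0.877 times the recovered totals.

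The fit took the 16590 genes whose RPKM averaged 0.5 or more. It used log2(RPKM + 0.5) in limma 3.58.1 (R 4.3.3), with a variance trend and Benjamini-Hochberg adjustment over all of them. A value with ± is a mean and SD of 2 libraries. Ratios of reads over library size carry 95% counting intervals, which cover counting error only. The fit was tested on simulated data. Alternatives varied the pseudocount, the filter, the scaling, the variance trend, a replicate block, voom on recovered reads, and each library left out. Members and lists were chosen with earlier results of these data known. Every tested member is named, untested members with 5 or more reads in a library are named with their reads, and in each list the 3 called genes with the smallest p in each direction, or else the gene with the smallest p, are named. Genes named for overlapping exons, for calls under an alternative or as absent were chosen after their values were seen. Some listed genes outside the members are not reported here. RefSeq hairpins were placed in hosts by position and strand against the GENCODE 29 models. As a check, 1510 matched GENCODE 29 microRNA genes by name, 1500 of them with the same start and end.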

Additional observations from a re-analysis of the deposited data

How the results depend on the processing

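The 5 calls among members were made again under 2 other pseudocounts, quantile normalisation and the replicate block, and without control replicate 2. Voom on recovered reads called 9 members, and leaving out single libraries called 1 to 5. Against 1513 calls over all genes, there were 977 with no filter, 424 without a variance trend, 3383 with voom and 574 to 1138 with a library left out. Processing genes had 0 calls, but 1 under scaling by total reads and 2 with voom, and 0 with any library left out. List genes had 6 calls, but 3 with no filter, 1 without a variance trend, 25 with voom and 1 to 5 with a library left out. The direction of the list calls also changed with the scaling, as given above. With a group reduced to 1 library, the lone library is assumed to vary like the other group.

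Of 43 tested members, 14 changed sign at least once, none of them called. With libraries scaled by total reads the log2 fold change was -0.0047 for MIR17HG, -0.0801 for MIR4458HG, -0.11 for AGO1, -0.0836 for AGO2, -0.0425 for AGO4, -0.13 for TNRC6A and -0.0777 for TUT7. It was 0.0217 for AGO3 after quantile normalisation and 0.0229 for MIRLET7IHG with voom. With single libraries left out it ran from -0.48 to 0.0286 for MIR130AHG, -0.12 to 0.36 for MIR17HG, -0.0242 to 0.37 for MIR1915HG, -0.0553 to 0.16 for MIR4458HG, -1.91 to 0.0394 for MIR4733HG, -0.0518 to 0.43 for MIR9-3HG and -0.22 to 0.17 for MIRLET7IHG. It ran from -0.0463 to 0.12 for AGO1, -0.00873 to 0.18 for AGO2, -0.12 to 0.0802 for AGO3, -0.0773 to 0.23 for AGO4, -0.14 to 0.20 for TNRC6A, -0.11 to 0.24 for TUT7 and -0.36 to 0.0384 for XPO5. The cause was not tested.

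Same-numbered libraries hardly deviated together (correlation 0.03 over genes). That value cannot show whether they were made as pairs, and the titles do not say. With the replicate block 1344 genes, 5 members and 4 list genes were called. With few reads per host, modest changes were not detectable at this depth.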
